A study of Mus musculus with 2 samples.

Results

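The transcripts described here come from the clustered histone genes, the gene family that supplies most of the histone protein packaged with newly made DNA. They were taken as every gene of the expression table whose symbol starts with Hist1h, Hist2h, Hist3h or Hist4h, which selected 66 of 27031 genes. By the class in the symbol, 6 members encode linker histone H1, 18 encode H2A, 17 encode H2B, 12 encode H3 and 13 encode H4. The members were measured in live CD45+ cells sorted from subcutaneous MC38 tumors, grown from a mouse colorectal cancer line, in female C57BL/6 mice that were 6 to 8 weeks old. Cells of 5 mice given vehicle (control) and of 5 mice given telmisartan, a drug against high blood pressure that blocks the angiotensin II receptor, were pooled by group, marked with Sample Tag 1 (control) or Sample Tag 2 (telmisartan) and captured together on 1 BD Rhapsody cartridge. Telmisartan was given at 5 mg/kg by daily intragastric dosing from the time of implantation, and tumors were taken on day 13. Each group was therefore 1 pool, so the spread between mice is unknown, no test between groups was possible and a difference between the tags cannot be told apart from a difference between the pools.

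Histones H2A, H2B, H3 and H4 form the nucleosome core around which DNA is wrapped, and H1 binds the linker DNA where it enters and leaves the nucleosome. Most of these genes are replication-dependent: their mRNAs accumulate in S phase and end in a conserved stem-loop in place of a poly(A) tail. The stem-loop is bound by the protein encoded by *Slbp*, and the mRNA is cut just downstream of it. Some clustered genes also yield longer polyadenylated transcripts outside S phase, and replacement histones encoded elsewhere in the genome are made throughout the cycle. The libraries were primed on poly(A), so a histone mRNA that ended at its stem-loop was outside the usual reach of the assay, and the levels here are those of what poly(A) capture recovered.

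The stem-loops of members that carry the results below are shown first, because they mark where a replication-dependent histone mRNA normally ends. Each run gives the 16 bases of the hairpin in capitals with 5 bases on either side, 5′ to 3′ on the gene's own strand, with the GRCm38 position of the capitals.
Hist1h1c, chr13:23739512-23739527, + strand: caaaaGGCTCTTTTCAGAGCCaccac
Hist1h1e, chr13:23621782-23621797, - strand: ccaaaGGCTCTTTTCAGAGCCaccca
Hist1h2ac, chr13:23683477-23683492, - strand: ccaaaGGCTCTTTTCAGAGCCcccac
Hist3h2a, chr11:58955172-58955187, + strand: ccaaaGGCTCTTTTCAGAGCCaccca
Hist1h3c, chr13:23745047-23745062, - strand: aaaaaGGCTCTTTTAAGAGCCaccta
Hist1h4d, chr13:23581950-23581965, + strand: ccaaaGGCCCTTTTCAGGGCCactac
Hist1h4i, chr13:22040966-22040981, - strand: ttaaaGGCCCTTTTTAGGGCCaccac
A hairpin of 6 paired bases around a loop of 4, starting with GG, was found within 75 bases of the stop codon in 45 of the 66 members. Of the 21 without one, 16 have models with under 150 bases after the stop codon. Some of those models, such as that of *Hist1h1b*, end at the stop codon, so a hairpin beyond the model could not be found. Only the longest coding model of each member was searched. The rest without a hairpin include *Hist1h2bc*, *Hist1h2bp*, *Hist1h2bq* and *Hist1h2br*, whose models have 2 exons, so a hairpin outside the model used was missed there too. The commonest form, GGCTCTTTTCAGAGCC, was carried by 25 members of classes H1, H2A, H2B and H3. Each H4 member with a hairpin had another form, most often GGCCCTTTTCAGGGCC, which 7 of them shared. Among 41508 coding transcripts of other genes with at least 75 bases after the stop codon, 1 (0.00241%) held the commonest form in that window. Any hairpin of this shape that started with GG was held by 99 (0.239%), and hairpins with other first bases were not counted.

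Positions of the genes followed the known clusters. On GRCm38, 53 members lie on chromosome 13, 10 on chromosome 3, 2 on chromosome 11 and 1 on chromosome 6, and 61 have a single exon in the transcript used. Of the 66 members, 61 had an entry in the RefSeq promoter table (6 H1, 18 H2A, 15 H2B, 10 H3 and 12 H4). The 150 bases before the start site of 4 H1 genes are printed next, because these genes share promoter letters and yet differed from each other across the cell cycle. Capitals mark the letters AAACACA (the H1 box), CCAAT or its complement ATTGG, and TATAAA or its complement TTTATA, each searched on both strands, in GRCm38.p6 from RefSeq, 5′ to 3′ on the gene's strand.
Hist1h1b, chr13:21780626-21780775, - strand: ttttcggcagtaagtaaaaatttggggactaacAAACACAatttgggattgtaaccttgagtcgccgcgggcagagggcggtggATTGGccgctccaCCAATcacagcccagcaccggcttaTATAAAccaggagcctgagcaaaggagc
Hist1h1c, chr13:23738657-23738806, + strand: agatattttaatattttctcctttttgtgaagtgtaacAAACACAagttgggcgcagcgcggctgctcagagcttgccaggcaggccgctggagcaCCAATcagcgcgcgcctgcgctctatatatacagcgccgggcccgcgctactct
Hist1h1d, chr13:23554882-23555031, + strand: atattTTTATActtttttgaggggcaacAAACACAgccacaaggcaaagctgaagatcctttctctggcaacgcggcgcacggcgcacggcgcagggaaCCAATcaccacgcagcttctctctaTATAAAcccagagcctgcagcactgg
Hist1h1e, chr13:23622559-23622708, - strand: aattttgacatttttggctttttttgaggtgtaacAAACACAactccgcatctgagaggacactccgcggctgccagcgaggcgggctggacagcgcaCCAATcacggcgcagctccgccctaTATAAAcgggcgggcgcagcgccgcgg
AAACACA was present in 5 of 6 H1 promoters, 1 of 18 H2A promoters and 1 of 15 H2B promoters, in none of the 10 H3 or 12 H4 promoters, and in 3.53% of all 32851 promoters of the table. CCAAT was found in 6 of 6 H1, 18 of 18 H2A, 15 of 15 H2B, 8 of 10 H3 and 3 of 12 H4 promoters, against 24.5% of all promoters. TATAAA was found in 4 of 6 H1, 7 of 18 H2A, 3 of 15 H2B, 4 of 10 H3 and 5 of 12 H4 promoters, against 7.57% of all promoters. A match describes letters in this window and not a bound site, and a missing match says nothing about the factor.

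After filtering, 8969 cells were kept, 4535 control and 4434 telmisartan. By marker genes, 8051 cells were macrophage-like (4052 control, 3999 telmisartan), 661 dendritic-like (364 and 297), 186 T-like (72 and 114) and 71 neutrophil-like (47 and 24). The clusters were built without the members, and the labelled CD45+ population was dominated by cells with macrophage markers. Control macrophage-like cells were deeper, with a median of 8969 unique molecular identifiers (UMIs) per cell against 6459, and their mitochondrial share was 7.497% against 8.118%. Levels are UMIs per 1000000 UMIs of the same cells (CPM), and a log2 ratio is that of 2 CPM values. All intervals are exact 95% intervals (Poisson for a level, conditional binomial for a ratio, Clopper-Pearson for a share) and cover counting error only.

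All 66 members had at least 1 UMI, 35334 UMIs in total, but the signal was held by few of them. H1 genes took 58.7% of the member UMIs, H2B genes 26.8%, H4 genes 6.96%, H2A genes 5.52% and H3 genes 2.01%. The median member had 39.5 UMIs, and the range ran from 1 to 19188. *Hist1h1c*, which encodes a somatic linker histone, had the most, and *Hist1h2bc*, a core H2B gene, followed with 8242. *Hist1h1t*, the testis H1 gene, was among the members with 1 UMI. In macrophage-like cells 17 members reached the 100 UMIs required for a ratio between pools (4 H1, 3 H2A, 4 H2B, 2 H3 and 4 H4), and the other 49 together held 1351 UMIs there.

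Divided by kilobases of annotated transcript, the order in macrophage-like cells was *Hist1h1c* (171 CPM per kb), *Hist1h2bc* (99), *Hist1h4i* (20.9), *Hist1h4d* (8.14), *Hist1h1b* (7.94) and *Hist3h2a* (5.95). A UMI counts a molecule and not its length, so CPM remains the measure of level and this order rests on the transcript models. The 11 other members with 100 UMIs lay between 1 and 5.34 CPM per kb. The lowest, *Hist1h1d*, has the longest annotated transcript (7425 bases, where RefSeq gives the gene 776), so its level per kilobase depends on that model. On CPM it was at 7.445, above *Hist1h1b* at 5.896.

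Members with a longer annotated tail after the hairpin held more UMIs as a group. The 22 members whose transcript continues for at least 150 bases after the hairpin held 70.8% of the member UMIs (25020), with a median of 201 UMIs, and 11 of them had at least 200. *Hist1h1c* alone gave 19188 of these, and the other 21 held 16.5% of the member UMIs (5832) with a median of 199. The 23 members that end within 150 bases after it held 2.67% (942 UMIs), with a median of 29, and none had 200 UMIs. Those 23 also shared more of their 75-base words with other genes, a median of 56.6% against 19.4%, and the part of such sharing in the counts was not tested. *Hist1h1c*, whose hairpin is printed above, continues for 840 bases after it, *Hist1h4d* for 770 and *Hist1h3c* for 74. Another 5 members had no hairpin in the model used but at least 150 bases after the stop codon. They held 24.5% (8652 UMIs), nearly all from *Hist1h2bc*. The last 16, with neither, held 2.04% (720 UMIs), of which 436 came from *Hist1h1b*, whose model ends at its stop codon. Over the 66 members, transcript length and UMIs had a Spearman rho of 0.52, given as a description because the members share libraries and sequence.

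**Figure D1:**
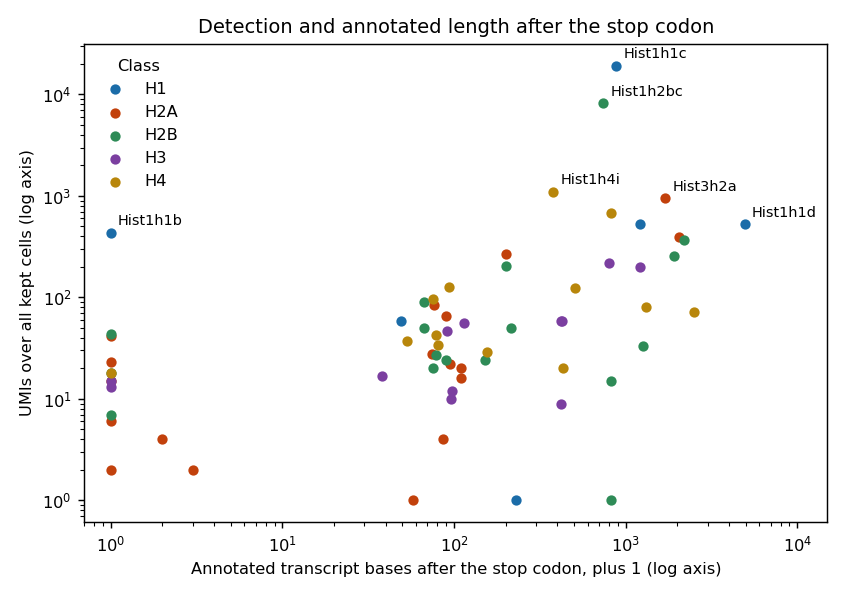
UMIs of each of the 66 members over all kept cells (y axis, log scale) against the annotated transcript bases after its stop codon, plus 1 (x axis, log scale), 1 point a gene, colored by histone class. Hist1h1c (19188 UMIs) and Hist1h2bc (8242 UMIs) stand above all others, and Hist1h1b (436 UMIs) is the highest of the genes whose model ends at the stop codon, at the left edge.

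Reads from these genes could not always be assigned to 1 copy. Of the 66 members, 31 share at least 50% of their 75-base words with transcripts of other genes and 6 share 100%, *Hist2h3c1* among them. *Hist1h2be* overlaps *Hist1h1e* on the same strand, and *Hist3h2a* overlaps *Trim17*. Values of such members are uncertain as to the copy, whereas *Hist1h1c* shares 6.66% and *Hist1h4d* 3.67% of its words.

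The comparison of the pools asked whether histone transcripts differed between telmisartan and control tumors. In macrophage-like cells the members summed to 22005 UMIs in control and 10449 in telmisartan, a level of 577 CPM (569.4 to 584.7) against 368.6 CPM (361.5 to 375.7). The log2 ratio of telmisartan over control was -0.65 (-0.68 to -0.61). Counted per cell, without scaling to depth, the members had 5.431 UMIs in control and 2.613 in telmisartan, on a scale on which the median of all genes was itself at -0.45 (log2), against -0.05 on the CPM scale. Telmisartan cells were also shallower, and the part of depth in the result was not tested beyond these scalings and thinning. The pools also differed in cluster makeup: the cluster led by *Cxcl9*, a chemokine gene, held 1319 control and 424 telmisartan cells, the cluster led by *Areg* and *Il1a* 708 and 1113, and the shallowest cluster 427 and 820. Without the *Cxcl9* cluster the log2 ratio was -0.62 (-0.66 to -0.58).

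Of the 17 members, 7 lay at or below -0.5 and 1 at or above 0.5, where 3.77% and 6.27% of the 11075 genes tested did. The median log2 ratio of the 17 was -0.48, beside -0.05 over all genes tested. Of the 17, 16 were lower in telmisartan, as were 6323 of the 11075 genes. The interval lay below 0 for 11 members, above 0 for 1 and held 0 for 5, and the like shares over all genes were not measured. The genes were chosen by symbol, but the family was selected on earlier values of this same contrast, the ratio of telmisartan over control CPM, in which *Hist1h1d* was among the lowest, so the shares are a description. *Hist3h2a*, just outside the -0.5 limit, and *Hist1h4d*, just inside it, had log2 ratios of -0.50 and -0.54.

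**Figure D2:**
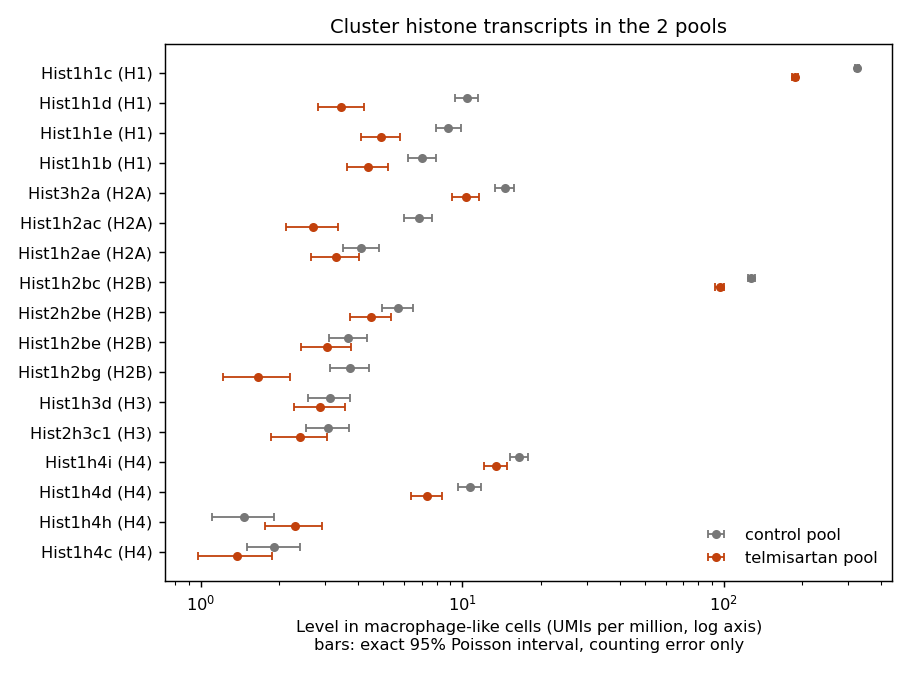
Level of each of the 17 members with at least 100 UMIs in macrophage-like cells (y axis, ordered by class) in CPM (x axis, log scale), grey for the control pool and orange for the telmisartan pool, with exact 95% Poisson intervals for counting error as bars. Hist1h1c stands at 324.7 CPM in control and 187.3 CPM in telmisartan, and the telmisartan point lies to the left of the control point for 16 of the 17 members, Hist1h4h being the exception.

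The linker histone class had the lowest ratio, 351.9 CPM in control and 200.7 CPM in telmisartan, log2 -0.81 (-0.85 to -0.77). *Hist1h1c* had 12383 UMIs in control and 5309 in telmisartan, 324.7 against 187.3 CPM, log2 -0.79 (-0.84 to -0.75). *Hist1h1d* had 397 and 98 UMIs, 10.41 against 3.457 CPM, with the lowest log2 ratio of any member tested at -1.59 (-1.92 to -1.27). All 4 H1 genes were thus lower in telmisartan on CPM, and none of their intervals reached 0. *Hist1h1e* had 338 and 139 UMIs, 8.863 against 4.903 CPM, log2 -0.85 (-1.15 to -0.57). *Hist1h1b*, an H1 gene tied to dividing cells, had 268 and 124 UMIs, 7.027 against 4.374 CPM, log2 -0.68 (-1.0 to -0.37). *Hist1h1a*, which fell short of 100 UMIs, had 35 and 20.

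The H2A and H2B genes, whose products pair as dimers in the nucleosome, differed by less as classes. H2A genes were at 30.5 CPM in control and 20.32 CPM in telmisartan, log2 -0.59 (-0.73 to -0.44). *Hist1h2ac* had 260 and 76 UMIs, 6.818 against 2.681 CPM, log2 -1.35 (-1.74 to -0.97). *Hist3h2a*, the H2A gene with the most UMIs, had 556 and 293, 14.58 against 10.33 CPM, log2 -0.50 (-0.71 to -0.29). The third H2A gene tested, *Hist1h2ae*, was at 4.117 and 3.28 CPM with an interval that held 0. H2B genes were at 147 CPM in control and 109.3 CPM in telmisartan, log2 -0.43 (-0.49 to -0.36). *Hist1h2bc* carried most of that sum, with 4873 and 2737 UMIs, 127.8 against 96.54 CPM, log2 -0.40 (-0.47 to -0.34). *Hist1h2bg*, a less abundant H2B gene, had 142 and 47 UMIs, 3.723 against 1.658 CPM, log2 -1.17 (-1.68 to -0.68). *Hist2h2be*, from the smaller cluster on chromosome 3, was at 5.664 and 4.48 CPM, log2 -0.34 (-0.67 to -0.02), and the interval of *Hist1h2be* held 0.

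The H3 and H4 genes, whose products form the central tetramer, were nearer to even. H3 genes were at 10.38 CPM in control and 9.241 CPM in telmisartan, log2 -0.17 (-0.40 to 0.06), so no difference was detectable at this depth. The H3 genes *Hist1h3d* (119 and 81 UMIs) and *Hist2h3c1* (117 and 68 UMIs) both had intervals that held 0. H4 genes were at 37.18 and 28.92 CPM, log2 -0.36 (-0.49 to -0.24). *Hist1h4i* had 628 and 382 UMIs, 16.47 against 13.47 CPM, log2 -0.29 (-0.48 to -0.10). *Hist1h4d* had 408 and 208 UMIs, 10.7 against 7.337 CPM, log2 -0.54 (-0.79 to -0.30). *Hist1h4h* was the only one of the 17 that was higher in telmisartan, with 56 UMIs in control and 65 in telmisartan, 1.468 against 2.293 CPM, log2 0.64 (0.10 to 1.18). Without *Hist1h1c* and *Hist1h2bc* the other 64 members together were still lower in telmisartan, 124.5 against 84.76 CPM, log2 -0.56 (-0.63 to -0.48).

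The members named by abundance within their class but under 100 UMIs rested on few molecules. The H2A gene *Hist1h2ad* had 43 UMIs in control and 18 in telmisartan. *Hist1h2ag*, another H2A gene, had 39 and 34, and the H2B gene *Hist1h2bb* had 50 and 22. The H3 genes *Hist1h3c* and *Hist1h3e* had 27 and 24, and 41 and 11, and *Hist2h3c2* had 28 in each pool. The H4 gene *Hist1h4f* had 50 and 33.

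A lower member level in telmisartan was also measured outside the macrophage-like class. In dendritic-like cells the members were at 566.7 CPM in control (1658 UMIs) and 315.1 CPM in telmisartan (652 UMIs), log2 -0.85 (-0.98 to -0.71). In T-like cells they were at 726.5 CPM (318 UMIs) and 413.9 CPM (188 UMIs), log2 -0.81 (-1.08 to -0.55). In neutrophil-like cells 49 and 15 UMIs gave 537.9 and 317.3 CPM, log2 -0.76 with an interval of -1.70 to 0.10 that held 0. The H1 class alone was at log2 -0.90 (-1.08 to -0.72) in dendritic-like and -1.24 (-1.62 to -0.87) in T-like cells. The H4 class in T-like cells was the exception, with 21 UMIs in control and 32 in telmisartan and an interval of the log2 ratio, -0.28 to 1.42, that held 0.

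*Hist1h1c* was lower in telmisartan in each of the 13 clusters. Among macrophage-like clusters its log2 ratio ran from -1.19 (-1.41 to -0.96), in the shallowest cluster, led by interferon-induced genes, to -0.39 (-0.52 to -0.26), in the cluster led by mitotic genes such as *Ccnb1*. In the cluster led by the S-phase genes *Mcm2*, *Mcm5* and *Cdc6* it had 387 and 103 UMIs, log2 -0.72 (-1.05 to -0.40). In the T-like cluster led by *Foxp3* it had 52 UMIs in control and 11 in telmisartan, log2 -2.04 (-3.13 to -1.08). The interval held 0 only in the neutrophil-like cluster. The summed members were likewise lower in all 13 clusters, from log2 -1.06 to -0.28, again with an interval that held 0 in the neutrophil-like cluster alone.

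**Figure D3:**
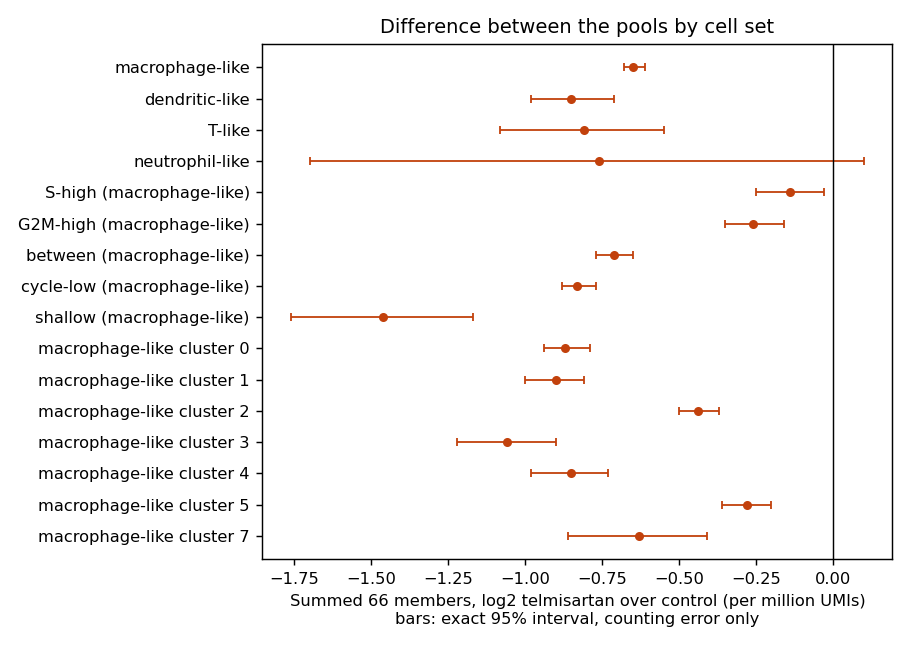
Log2 ratio of CPM, telmisartan over control, of the 66 members summed (x axis) in each cell class and in each cycle range and cluster of the macrophage-like cells (y axis), with exact 95% intervals for counting error as bars, a line at 0 and 1 pool per group. Every point lies below 0, from -1.46 in the shallow cells to -0.14 in S-high cells, and the bar crosses 0 for neutrophil-like cells alone.

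With both pools joined, the most abundant member was at a like level in all 4 cell classes. *Hist1h1c* was at 266.1 CPM in cells with macrophage markers, 243.5 CPM in dendritic-like cells, 272.4 CPM in T-like cells and 267.4 CPM in neutrophil-like cells. The order differed within the pools: in control it was highest in T-like cells, 392.9 CPM (336.4 to 456.3) against 324.7 CPM (319 to 330.5) in macrophage-like cells, and in telmisartan T-like cells were at 156.3 CPM (122.1 to 197.2) against 187.3 CPM (182.3 to 192.4). Joined, *Hist1h2bc* was at 114.5, 105.9, 99.78 and 101.2 CPM. The macrophage marker *Lyz2* was at 10516 CPM in macrophage-like cells and 1466, 2136 and 1337 CPM in the other 3 classes. Another macrophage marker, *C1qa*, was at 441.1 CPM and at 74.48, 153.6 and 21.68 CPM, the last from 3 UMIs. Neither gene separates RNA shared between cells from RNA that those cells made. With the pools joined, *Hist1h1c* in those classes stood at 0.9149, 1.024 and 1.005 of its macrophage-like level. *Lyz2* stood at 0.1394, 0.2031 and 0.1272, and *C1qa* at 0.1688, 0.3482 and 0.04916. A UMI of *Hist1h1c* was found in 53.2% (52.1 to 54.3) of macrophage-like cells and 28.2% (18.1 to 40.1) of neutrophil-like cells, whose median depth was 1746 UMIs against 7554. After thinning each cell to 1000 UMIs the shares were 19.7% (18.9 to 20.6) and 15.5% (8 to 26).

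The second comparison set cycling against non-cycling macrophage-like cells, since most members are S-phase genes. Cells with at least 2000 UMIs were thinned to 2000 UMIs and divided by summed S-phase and G2/M genes, none of them a member. S-high cells numbered 350 in control and 236 in telmisartan, G2/M-high cells 254 and 233, and cycle-low cells, at or under the median of both lists, 1733 and 1621. A further 1443 and 1478 cells lay between, and 272 and 431 were too shallow. The ranges are parts of a continuum: 546 cells lay within 1 UMI of the S-phase limit of 5 UMIs and 149 within 1 UMI of the G2/M limit of 8. Median depth was 13174 UMIs in S-high, 12047 in G2/M-high and 7468 in cycle-low cells, so both scales are given.

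With both pools joined, the members summed were lower in S-high than in cycle-low cells on CPM and higher on UMIs per cell. The level was 368.6 CPM in S-high and 497.9 CPM in cycle-low cells, log2 -0.43 (-0.49 to -0.38), while UMIs per cell were 4.824 and 4.034, log2 0.26. The CPM difference was measured in control, log2 -0.68 (-0.75 to -0.61), whereas in telmisartan the ratio was 0.01 (-0.10 to 0.11). The H2A class likewise was at -0.57 (-0.89 to -0.26) in control and 0.24 (-0.21 to 0.67) in telmisartan. The rise of the summed members on UMIs per cell was measured in telmisartan only, with 962 UMIs in 236 S-high and 3963 in 1621 cycle-low cells. Control had 1865 UMIs in 350 S-high and 9566 in 1733 cycle-low cells, slightly fewer per S-high cell. Joined, on CPM the H1 class was at log2 -0.73 (-0.81 to -0.65), with 2.457 UMIs per S-high cell and 2.525 per cycle-low cell. H2A was at -0.28 (-0.54 to -0.03) and H2B at -0.36 (-0.48 to -0.25), but per cell both were higher in S-high cells (0.2713 against 0.2039, and 1.278 against 1.016). H3 was at 0.19 (-0.19 to 0.55). H4 was higher in S-high cells on both scales, 51.63 against 26.24 CPM, log2 0.98 (0.80 to 1.16), and 0.6758 against 0.2126 UMIs per cell.

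Single members parted in opposite directions. Of 12 members tested, 5 were at or below -0.5 and 3 at or above 0.5 on CPM, where 11.5% and 19.4% of 10051 genes were. The minimum of UMIs was on the sum of both ranges, and cycle-low cells held 27171257 UMIs of all genes against 7669431 in S-high cells. A member could thus pass through cycle-low cells alone, as *Hist1h2ac* did with 137 UMIs there and 14 in S-high cells. *Hist1h1a* (9 and 24) and *Hist1h2ag* (7 and 19) were among those not counted, so the split does not describe the family. *Hist1h1b* was at 1.767 CPM in cycle-low and 19.04 CPM in S-high cells (48 and 146 UMIs), log2 3.43 (2.95 to 3.93). *Hist1h4d* was at 5.521 and 19.3 CPM (150 and 148 UMIs), log2 1.81 (1.47 to 2.14). *Hist1h1e* was at 4.932 and 9.779 CPM, log2 0.99 (0.56 to 1.41). Those 3 were higher in S-high cells on UMIs per cell as well, with log2 values of 4.12, 2.50 and 1.68. On the other side, *Hist1h1c* was at 296.9 CPM in cycle-low and 150.1 CPM in S-high cells, log2 -0.98 (-1.07 to -0.89), and at 2.405 and 1.964 UMIs per cell. Its direction per cell differed between the pools. Control had 774 UMIs in 350 S-high and 5831 in 1733 cycle-low cells, fewer per S-high cell. Telmisartan had 377 UMIs in 236 S-high and 2236 in 1621 cycle-low cells, more per S-high cell. *Hist3h2a* was at log2 -1.43 (-1.93 to -0.97), *Hist1h2ac* at -1.47 (-2.37 to -0.67) and *Hist2h3c1* at -1.59 (-2.76 to -0.61). With the pools joined, all 3 were also lower per cell. *Hist1h2bc* was at 112 and 76.67 CPM, log2 -0.55 (-0.68 to -0.42), but was higher in S-high cells per cell, 1.003 against 0.9076 UMIs. That rise per cell was in telmisartan, with 200 UMIs in 236 S-high and 1034 in 1621 cycle-low cells. It was not in control, with 388 UMIs in 350 S-high and 2010 in 1733 cycle-low cells.

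Leaving out *Hist1h1c* and *Hist1h2bc*, the sum of the other members was higher in S-high cells, log2 0.67 (0.57 to 0.78) on CPM. Members with a short annotated tail contributed few molecules, and their ratios had wide intervals. Not all of these ratios were large. On UMIs per cell, a scale that adds 0.69 to the CPM ratio, *Hist1h4h* was at log2 0.97 and *Hist2h2ac* at -0.07. *Hist2h2aa1* and *Hist2h2aa2* had 0 UMIs in S-high cells. The members named next are examples of large ratios. *Hist1h3c*, whose hairpin is printed above, had 2 UMIs in cycle-low and 22 in S-high cells, log2 5.28 (3.26 to 8.42). *Hist1h2ag* had 7 and 19 UMIs, log2 3.27 (1.95 to 4.76). *Hist1h1a*, the H1 gene without an H1 box in its promoter window, had 9 and 24 UMIs, log2 3.24 (2.08 to 4.53). *Hist1h2bb* and *Hist1h4f* were at log2 2.27 (1.19 to 3.37) and 1.96 (1.02 to 2.91).

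G2/M-high cells held more member UMIs than either other range, 660.8 CPM and 8.357 UMIs per cell. The log2 ratio over cycle-low cells was 0.41 (0.36 to 0.46) on CPM, and that over S-high cells was 0.84 (0.77 to 0.91). Of 14 members tested against cycle-low cells, 10 were at or above 0.5 and 0 at or below -0.5, where 16.9% and 12.2% of 9978 genes were. The minimum of UMIs was again on the sum of both ranges, so these counts cover only the members that passed it. *Hist1h1b* was at 24.19 CPM in G2/M-high cells, log2 3.78 (3.30 to 4.28), *Hist1h4d* at 24.35 CPM, log2 2.14 (1.80 to 2.48), and *Hist1h2bc* at 192.5 CPM, log2 0.78 (0.68 to 0.88). *Hist1h2be* and *Hist1h2ae* stood at log2 1.70 (1.16 to 2.23) and 1.69 (1.19 to 2.19). *Hist1h1c* was lower on CPM in G2/M-high than in cycle-low cells, 247.1 against 296.9, log2 -0.26 (-0.34 to -0.19), but higher on UMIs per cell, 3.125 against 2.405. A UMI of *Hist1h1b* was found in 22.4% (18.8 to 26.3) of G2/M-high, 18.1% (15.1 to 21.4) of S-high and 1.19% (0.853 to 1.62) of cycle-low cells. Thinned to 1000 UMIs, those shares were 2.26%, 1.19% and 0.268%, near the level of single UMIs, with the first and last intervals (1.13 to 4.01 and 0.123 to 0.509) apart.

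**Figure D4:**
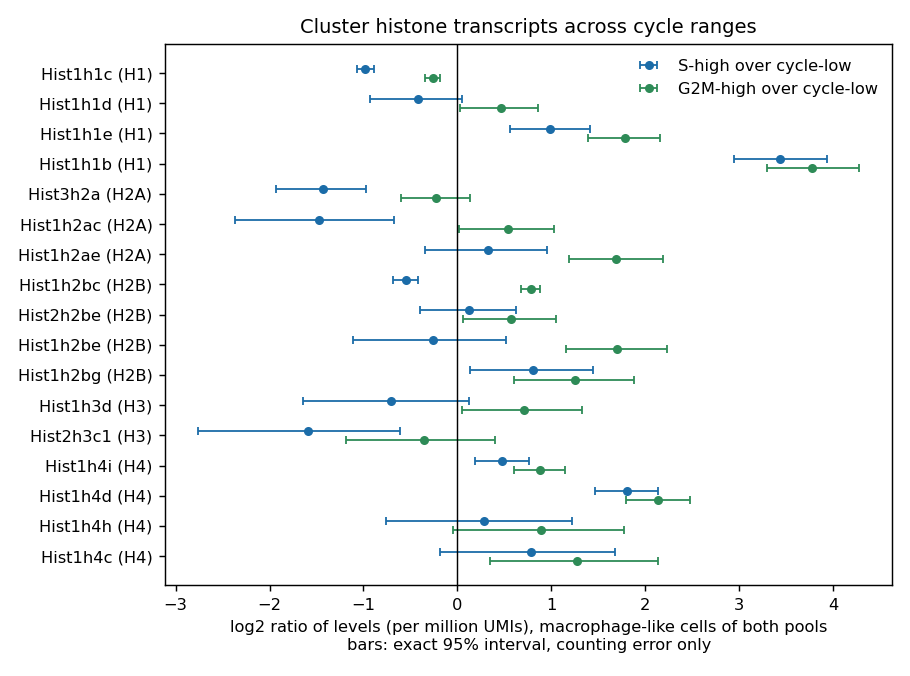
Log2 ratio of CPM over cycle-low macrophage-like cells (x axis) for the 17 members with at least 100 UMIs (y axis, ordered by class) in S-high cells (blue) and in G2/M-high cells (green), both pools joined, with exact 95% counting intervals as bars. Hist1h1b and Hist1h4d lie to the right of 0 in both ranges and Hist1h1c to the left, at -0.98 and -0.26, on a scale to which UMIs per cell would add 0.69 (S-high) or 0.64 (G2/M-high) at every point.

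Among the 3 cycle ranges, the pools differed most where cycle genes were low. In cycle-low cells the members were at 610.7 CPM in control (9566 UMIs) and 344.4 CPM in telmisartan (3963 UMIs), log2 -0.83 (-0.88 to -0.77). In S-high cells they were at 381.5 CPM (1865 UMIs) and 346 CPM (962 UMIs), log2 -0.14 (-0.25 to -0.03). In G2/M-high cells they were at 711.5 CPM (2455 UMIs) and 596.1 CPM (1615 UMIs), log2 -0.26 (-0.35 to -0.16). The log2 ratio in S-high cells was higher than that in cycle-low cells by 0.69 (0.56 to 0.81), and that in G2/M-high cells was higher by 0.57 (0.47 to 0.68), with normal intervals on the log scale for counting error only. Cells between the ranges were at log2 -0.71 (-0.77 to -0.65), and the cells too shallow for a range were at -1.46 (-1.76 to -1.17), from 262 and 151 member UMIs. The S-high ratio depended on which cycling cells entered it. S-high cells were spread over clusters, 239 of the 586 in the mitotic cluster, 155 in the cluster led by S-phase genes and the rest elsewhere. S-high cells of the mitotic cluster were at log2 -0.10 (-0.25 to 0.05), from 857 and 664 UMIs, and those of the S-phase cluster at -0.65 (-0.96 to -0.36), from 493 and 115 UMIs. S-high cells of the other macrophage-like clusters were at -0.36 (-0.62 to -0.12). The S-phase cluster as a whole, 158 control and 82 telmisartan cells, was at 322 and 208.2 CPM (740 and 210 UMIs), log2 -0.63 (-0.86 to -0.41), an interval that overlaps that of the cycle-low ratio. The small S-high difference between pools therefore did not hold for each group of cells with high S-phase genes. The S-high ratio was above the cycle-low ratio under 26 of 26 settings, by 0.20 with the S-phase cluster in place of the S-high cells and by up to 0.78 elsewhere, while the S-high ratio ran from -0.63 to -0.05 and the cycle-low ratio from -1.17 to -0.69. In addition, 1 telmisartan S-high cell alone held 70 member UMIs, and without that cell the S-high ratio was -0.24 (-0.36 to -0.12).

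Of 9 members tested in cycle-low cells, 8 were at or below -0.5 and 0 at or above 0.5, with a median of -0.94, where 4.38% and 6.15% of 9453 genes were. The minimum of 100 UMIs was on the sum of both pools, so a member could pass it through control alone, as several below did. The family was also selected on earlier values of the ratio of telmisartan over control, so these counts are a description. *Hist1h1c* had 5831 UMIs in control and 2236 in telmisartan in cycle-low cells, 372.3 against 194.3 CPM, log2 -0.94 (-1.01 to -0.87). *Hist1h1e* had 116 and 18 UMIs, log2 -2.24 (-3.05 to -1.52), and *Hist1h2ac* had 118 and 19, log2 -2.19 (-2.97 to -1.48). *Hist1h1d* had 173 and 36 UMIs, log2 -1.82 (-2.38 to -1.30). *Hist1h4d*, one of the members higher in S-high cells, had 113 and 37 UMIs here, log2 -1.17 (-1.74 to -0.62). Below the minimum of 100 UMIs, *Hist1h1b* had 43 and 5, log2 -2.66 (-4.35 to -1.33), and *Hist1h4f* had 10 in each pool.

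In S-high cells 0 of 5 members passed 0.5 in either direction, where 5.61% of 7374 genes were at or below -0.5 and 5.6% at or above 0.5. In G2/M-high cells it was 0 of 6, where 3.84% and 4.49% of 6711 genes were. *Hist1h1b* had 93 and 53 UMIs in S-high cells, log2 0.00 (-0.51 to 0.51). *Hist1h1e* had 46 and 29, log2 0.15 (-0.57 to 0.85), which exceeded its cycle-low ratio by 2.39 (1.41 to 3.37). *Hist1h4d* had 90 and 58, log2 0.18 (-0.32 to 0.67), which exceeded its cycle-low ratio by 1.35 (0.63 to 2.06). For *Hist1h1d* the same difference was 1.05 with an interval of -0.06 to 2.16 that held 0.

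The summed cycle genes that set the ranges were near even between pools in cycle-low cells, log2 -0.03 (-0.08 to 0.02) for the S-phase list and -0.08 (-0.12 to -0.03) for the G2/M list. In S-high cells the S-phase list was at -0.03 (-0.06 to 0.00), but the G2/M list was higher in telmisartan, 5591 against 4497 CPM, so those cells differed between pools in G2/M genes. Across all macrophage-like cells the 5 proliferation markers summed to 430.6 CPM in control and 438.4 CPM in telmisartan. Over the same cells the S-phase list was lower in telmisartan, log2 -0.16 (-0.18 to -0.14), and the G2/M list was at 0.00 (-0.01 to 0.02). Of the 43 S-phase genes 37 were lower, 6 at or below -0.5, with a median of -0.20. Over all genes tested 6323 of 11075 were lower, 3.77% were at or below -0.5, and the median was -0.05. All of these lists were measured beside the members, and their part in the results was not tested.

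Seen cell by cell, the share of cycle-low cells with no member UMI was 16% (14.3 to 17.8) in control and 32.7% (30.4 to 35) in telmisartan, at median depths of 8533 and 6548 UMIs. The median member level per cell was 364.5 and 207.1 CPM. In S-high cells the same share was 13.1% (9.79 to 17.1) and 16.5% (12 to 21.9), at 14198 and 11657 UMIs. With every cell thinned to 1000 UMIs, 37.5% (35.2 to 39.8) of control and 25% (23 to 27.2) of telmisartan cycle-low cells held a member UMI, against 29.7% (25 to 34.8) and 24.6% (19.2 to 30.6) of S-high cells.

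Markers of other cell types that the gate could hold were low in macrophage-like cells of both pools. The 11 T-cell markers summed to 14.53 CPM in control and 16.68 CPM in telmisartan with all 11 detected, the 8 dendritic markers to 12.98 and 14.74, the 4 neutrophil markers to 33.35 and 30.72, and the pair of NK markers to 0.6293 and 0.6349. The 7 tumor and stromal markers summed to 25.49 and 27.69 CPM. The 11 macrophage markers summed to 16411 and 15510 CPM.

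Genes that make, process and handle these mRNAs and their proteins stayed within 0.5 (log2) of even between pools wherever they had at least 100 UMIs. Of the 18 processing and transcription genes with that many, of 19 listed, 0 passed 0.5 in either direction, with a median log2 ratio of -0.19 and 15 lower in telmisartan. Over all genes tested 3.77% were at or below -0.5, 6.27% at or above 0.5, and 6323 of 11075 were lower. The processing gene left out, *Zfp473*, had 14 and 31 UMIs, log2 1.57 (0.62 to 2.60). *Slbp*, the stem-loop binding protein, was at 52.05 and 50.54 CPM, log2 -0.04 (-0.14 to 0.06), and *Npat*, the coactivator of histone gene transcription, at 11.83 and 9.7 CPM, log2 -0.29 (-0.51 to -0.07). *Cpsf3*, the nuclease that cuts histone pre-mRNA, was at log2 -0.26 (-0.37 to -0.16). The 4 decay genes had a median of -0.11, the highest being *Tut7*, a terminal uridylyltransferase, at 0.22 (0.16 to 0.29). Of 18 histone chaperone genes 0 passed 0.5, with a median of -0.07, *Daxx*, a chaperone of replacement H3, being highest at 0.46 (0.35 to 0.56). Of the 9 replacement histone genes with 100 UMIs, of 11 listed, 0 passed 0.5, with a median of -0.04, and below that minimum *H2afy2* had 12 and 20 UMIs and *H1fx* had 6 and 2. The replacement H3 genes *H3f3a* and *H3f3b* were at -0.11 (-0.13 to -0.09) and -0.23 (-0.25 to -0.22), and the replacement linker histone gene *H1f0* was at 122.3 and 99.15 CPM, log2 -0.30 (-0.37 to -0.23).

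Leaving out genes of the cycle lists, which the ranges themselves chose, many processing, chaperone and replacement genes were higher in S-high than in cycle-low cells. Of 16 processing genes 9 were at or above 0.5 and 0 at or below -0.5, of 16 chaperones 10 and 0, and of 8 replacement histones 4 and 0, beside 19.4% and 11.5% of all genes. The decay genes were split, with 1 of 4 in each direction: *Tut7* was at 132.3 CPM in cycle-low and 88.01 CPM in S-high cells, log2 -0.59 (-0.71 to -0.47), and *Exosc10*, an exosome nuclease, at log2 0.63 (0.45 to 0.81). *Eri1*, an exonuclease of histone mRNA ends, was at 35.96 CPM in cycle-low and 98.96 CPM in S-high cells, log2 1.46 (1.32 to 1.60), and *Npat* was at log2 1.18 (0.88 to 1.48). *Asf1b*, a chaperone of new H3 and H4, was at 3.239 and 92.58 CPM, log2 4.84 (4.52 to 5.17). *H2afx*, an H2A variant gene placed in the replacement list, was at log2 2.33 (2.06 to 2.60). *H1f0* was at 104.8 CPM in cycle-low and 91.14 CPM in S-high cells, log2 -0.20 (-0.32 to -0.08), and was higher in G2/M-high cells at 204.4 CPM, log2 0.96 (0.87 to 1.06).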

How the data were processed

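The deposited gene table holds counts of UMIs per gene and putative cell, corrected for UMI errors by the authors' BD Rhapsody pipeline on GRCm38 with intronic reads included, and the second deposited table holds counts of Sample Tag reads. Each of 20726 putative cells was assigned to a tag with at least 75% of at least 10 tag reads, and cells with 150 to 5000 genes and no more than 20% of UMIs from mitochondrial genes were kept, as in the study. Tag 1 cells formed the control group and tag 2 cells the telmisartan group. Every table column was mapped.

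Scrublet (scanpy 1.11.5) marked no doublet by its automatic threshold, so the 942 cells with the highest scores were removed, a number set by the rate of cells split between tags. Clustering used Seurat 5.3.0 (R 4.3.3, resolution 0.5) without the members, and clusters were named by markers, of which 1 list is not reported here. UMIs were summed per pool (Python 3.11.15, numpy 2.4.6, scipy 1.17.1, pandas 2.3.3). Ratios needed 100 UMIs over both groups, and 0.5 (log2) stood in for a call. The ratio and its interval were tested on simulated data. S-high and G2/M-high cells were at or above the 90th percentile of their list. edgeR 4.0.16 gave TMM factors for an alternative scaling.

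Named members were the 5 with most UMIs in each class and, among those with 200 UMIs, the 3 highest and 3 lowest in each comparison. The members, lists and limits were chosen with earlier results of these data known. Transcript models were taken from the GENCODE annotation supplied with the reference, which was not the release the pipeline used, and promoters from RefSeq.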

Additional observations from a re-analysis of the deposited data

Results flagged for a closer look

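The H1 class changed direction between pools when G2/M-high cells were set against cycle-low cells on CPM. In control its log2 ratio was -0.25 (-0.34 to -0.15), and in telmisartan it was 0.39 (0.26 to 0.51). *Hist1h1c* drew attention in the same way, at -0.45 (-0.55 to -0.35) in control and 0.14 (0.01 to 0.28) in telmisartan. The difference between the pools was not tested, because each was 1 pool. On UMIs per cell the H1 class was higher in G2/M-high cells in both pools, 4.516 against 3.561 in control and 3.034 against 1.417 in telmisartan.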

How the results depend on the processing

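No paired analysis was possible because each group was 1 pool with no replicate. For the same reason no replicate was left out. The cycle-low alternatives, the repeated thinnings, the S-phase cluster and the settings without a cluster or cell were chosen after seeing the data.

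The ratio of summed members in macrophage-like cells (-0.65) was -1.06 on UMIs per cell, -0.60 with TMM factors, -0.80 with cells thinned to 1000 UMIs and -0.61 without the shallowest cluster. The count of members at or below -0.5 (7 of 17) was 16 on UMIs per cell, 3 after thinning and 31 with no minimum of UMIs. These counts cannot be compared directly. On UMIs per cell the median log2 ratio of all genes was itself -0.45. The numbers of members tested after thinning and with no minimum are not given, so those counts are not to be read against the 17. The shares of all genes at or below -0.5 under these settings are not given either. The S-high over cycle-low ratio (-0.43) was 0.26 on UMIs per cell and 0.32 with the G2/M cluster against the other clusters, -0.79 with the S-phase cluster in place of the S-high cells, and otherwise -0.50 (TMM), -0.33 (95th percentile), -0.37 (ranges at 1000 UMIs, and also without the cluster with the largest control share), -0.36 (90% of tag reads), -0.55 (mitochondrial limit 10%) and -0.54 and -0.36 in 2 of 7 repeated thinnings. The S-high ratio between pools (-0.14) was -0.39 on UMIs per cell and without doublet removal, -0.44 with ranges at 1000 UMIs, -0.28 with the G2/M cluster, -0.63 with the S-phase cluster, -0.27 at 90% of tag reads, -0.46 with no maximum of genes, -0.35 clustered with the histone genes, and -0.29 and -0.26 at resolutions 0.3 and 0.8. The cycle-low ratio (-0.83) was -1.17 on UMIs per cell, -0.73 with the G2/M cluster, -0.69 at 90% of tag reads and at the 10% limit, -0.77 clustered with the histone genes, and -0.73, -0.75 and -0.73 in 3 repeated thinnings. The causes were not tested.

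For the 25 named members, 323 of 350 values stayed within the counting interval. *Hist1h2ad* turned to 0.35 after thinning to 1000 UMIs. Among the 13 named members with 200 UMIs, 5 of 182 values changed sign. Depth limits most members: 49 had under 100 UMIs in macrophage-like cells.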

Other observations

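Cells outside the filters also held member UMIs. The 8959 cells over 20% mitochondrial UMIs had 232.4 CPM of members (223.7 to 241.4). Those of control had 265.5 CPM, against 577.8 CPM in kept control cells, and those of telmisartan had 210.8 CPM. Cells under 150 genes had 104.7 CPM (86.69 to 125.4), 114.3 in control and 94.65 in telmisartan. The 90 cells over 5000 genes had 431 CPM, and here telmisartan was not lower, at 442.4 CPM (382.2 to 509.4) in 16 cells against 428.6 CPM (400.9 to 457.8) in 74 control cells. The 941 cells split between tags had 495.9 CPM and the 122 cells with few tag reads 459.9 CPM. The 942 cells removed by doublet score had 510.8 CPM in control and 390.9 CPM in telmisartan.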
